A study of Homo sapiens with 6 samples.

Results

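The inflammatory cytokines and chemokines examined were 10 genes chosen by name: *IL1B*, *IL1RN*, *IL18*, *IL6*, *TNF*, *CXCL2*, *CXCL3*, *CCL2*, *CCL3* and *CCL4*. They are 10 of the 30017 gene symbols in the count table, and all 10 are listed there. They were measured by RNA-seq in BLaER1-CTCF-mAID cells, a single subclone of a B cell leukemia line that exogenous CEBPA converts into induced macrophages (iMacs). The subclone expresses CTCF with a degron tag, and adding indole-3-acetic acid (IAA), an auxin, causes the tagged protein to be degraded. The 3 groups have 2 biological replicates each: cells before differentiation (0 h), cells differentiated for 96 h with no IAA (96 h control) and cells differentiated for 96 h that received IAA along with the transdifferentiation factors (96 h CTCF-depleted). All 6 libraries come from the degron subclone. Differentiation medium with 17β-estradiol, IL-3 and CSF-1 was used only for the 96 h cells, and no inflammatory stimulus is named for any group. The promoter that drives CEBPA is not given in the sources used here, and cells without the degron that received IAA are not among the libraries, so that effects of IAA and of CTCF loss cannot be told apart.

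Macrophages sense damage and infection and answer with secreted proteins. *IL1B* and *TNF* encode the classical early cytokines, which act through receptors that activate NF-kB, and *IL6* encodes a cytokine that signals through JAK and STAT proteins. *IL18* encodes a relative of IL-1β that, like IL-1β, is made as an inactive precursor, and *IL1RN* encodes the antagonist that occupies the IL-1 receptor without signalling. Chemokines attract leukocytes: *CXCL2* and *CXCL3* act on neutrophils through CXCR2, *CCL2* acts on monocytes through CCR2, and *CCL3*, which acts among others through CCR1, and *CCL4* attract monocytes and T cells. In unstimulated macrophages most of these genes are weakly transcribed, and their mRNAs are short-lived.

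The members lie on 6 chromosomes of hg38. *IL1B* (chromosome 2, 112829751 to 112836816) and *IL1RN* (chromosome 2, 113099315 to 113134016) are 262499 bases apart. *TNF* (chromosome 6, 31575565 to 31578336), *IL6* (chromosome 7, 22725884 to 22732002) and *IL18* (chromosome 11, 112143253 to 112164096) are on chromosomes of their own. *CXCL3* (chromosome 4, 74036589 to 74038807) and *CXCL2* (chromosome 4, 74097040 to 74099196) are 58233 bases apart. On chromosome 17, *CCL3* (36088256 to 36090169) and *CCL4* (36103827 to 36105621) are 13658 bases apart, and *CCL2* (34255274 to 34257208) is 1831048 bases from *CCL3*.

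Promoters were taken from RefSeq (GRCh38.p14) for 7 of the 10 members, *IL1B*, *IL1RN*, *IL6*, *TNF*, *CXCL2*, *CXCL3* and *CCL3*. Shown are the 250 bases upstream of the transcription start, 5′ to 3′ in the direction of the gene, for the 3 members that were higher in CTCF-depleted cells (*IL1B*, *TNF* and *CCL3*) and for *CXCL2*, which had no count in any library. Capitals mark the motif matches named next. The windows are chr2:112836780-112837029 (minus strand), chr6:31575315-31575564 (plus strand), chr17:36090144-36090393 (minus strand) and chr4:74099196-74099445 (minus strand), in the order of the lines.
IL1B: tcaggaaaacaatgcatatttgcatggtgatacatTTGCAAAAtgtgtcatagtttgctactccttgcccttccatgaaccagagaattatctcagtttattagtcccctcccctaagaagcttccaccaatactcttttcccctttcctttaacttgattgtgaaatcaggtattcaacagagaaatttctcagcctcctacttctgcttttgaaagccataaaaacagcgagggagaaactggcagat
TNF: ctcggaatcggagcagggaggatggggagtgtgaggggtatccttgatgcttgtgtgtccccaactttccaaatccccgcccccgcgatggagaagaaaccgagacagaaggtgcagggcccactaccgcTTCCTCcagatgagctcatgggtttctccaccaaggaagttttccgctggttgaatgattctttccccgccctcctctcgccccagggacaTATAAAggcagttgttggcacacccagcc
CCL3: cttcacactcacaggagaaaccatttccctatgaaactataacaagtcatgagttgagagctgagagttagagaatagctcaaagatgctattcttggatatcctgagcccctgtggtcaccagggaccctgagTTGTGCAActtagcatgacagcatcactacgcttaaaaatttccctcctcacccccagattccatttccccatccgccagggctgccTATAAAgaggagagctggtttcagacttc
CXCL2: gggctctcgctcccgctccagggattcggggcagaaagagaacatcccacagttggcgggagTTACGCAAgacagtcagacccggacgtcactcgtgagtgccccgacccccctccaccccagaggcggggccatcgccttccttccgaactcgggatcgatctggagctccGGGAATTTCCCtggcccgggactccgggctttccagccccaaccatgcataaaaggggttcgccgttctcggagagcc

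Both strands of these windows were searched for 6 motifs. The C/EBP motif TTGCNNAA, a site for the family of CEBPA, matched in 4 of 7 members (*IL1B*, *CCL3*, *CXCL2* and *IL6*) and in 9.05% of the 35116 promoters in the RefSeq table. In *IL1B* the match begins 215 bases before the start. The NF-kB consensus matched in 3 of 7 members (*IL6*, *CXCL2* and *CXCL3*) and in 5.21% of all promoters. In *CXCL2* and *CXCL3* it matched on both strands at overlapping positions. TATAAA, the TATA box, matched in *TNF*, *CCL3* and *IL1RN* and in 10.7% of all promoters, and in both *TNF* and *CCL3* it begins 29 bases before the start. GAGGAA, a core bound by the macrophage factor PU.1, matched in *TNF* and in 23.6% of all promoters. Neither the AP-1 motif TGANTCA (6.57% of all promoters) nor a CTCF core motif (0.427%) has a match in the 7 windows.

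Total counts per library ranged from 9273470 to 12718780. *CTCF* mRNA, which the degron does not target, was at 177 CPM (read counts scaled to library size) in control and 190 CPM in depleted cells, and the protein was not measured here. The summed level of 8 B cell markers was 2250 to 2271 CPM at 0 h, 389 to 393 CPM in control and 341 to 357 CPM in depleted cells. *EBF1* (879 CPM) and *PAX5* (794 CPM) were the highest of these at 0 h. With depletion, *VPREB1* was called lower (log2 fold change -0.89) and the other 7 neither. The summed level of 8 macrophage markers was 35.3 to 39.0 CPM, 5004 to 5248 CPM and 4861 to 4893 CPM in the same order of groups. At 96 h *LYZ* made up most of this sum, with 4527 CPM in control and 4158 CPM in depleted cells. With depletion, *ITGAM* was called higher (log2 fold change 1.15), *MRC1* lower (-1.33) and the other 6 neither. The median log2 fold change of the 8 macrophage markers was 0.28. In bulk RNA, fewer cells of a type and less RNA per cell cannot be told apart. The 6 neutrophil markers summed to 0.722 to 0.825 CPM at 0 h. Their sum was 115 to 122 CPM in control and 84.2 to 94.9 CPM in depleted cells. *FCGR3B* was at 0 in every library, while *CSF3R* (71.8 CPM) and *S100A12* (35.7 CPM) were the highest of the list in control. Of the 4 neutrophil markers tested, *MPO* was called lower with depletion (log2 fold change -0.70) and the other 3 neither. The 6 T cell markers summed to 0.0750 to 0.103 CPM at 0 h. Their sum was 5.28 to 5.82 CPM in control and 6.02 to 6.36 CPM in depleted cells. *CD3D* and *CD3G* were at 0 in every library. *CD2* had 0 and 0 counts at 0 h, 40 and 38 in control and 54 and 55 in depleted cells. *CD4* had 0 and 0, 25 and 19, and 8 and 13 counts in the same order. The 5 fibroblast markers summed to 250 to 256 CPM at 0 h. Their sum was 29.1 to 32.1 CPM in control and 32.7 to 32.8 CPM in depleted cells. *COL3A1* and *DCN* were at 0 in every library, while *PDGFRB* (242 CPM) and *COL1A1* (10.9 CPM) had counts at 0 h. The part of these shifts in the results was not tested.

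The 10 members split into 4 that passed the filter on low counts and 6 at or near 0 counts. *IL1B*, *IL1RN*, *TNF* and *CCL3* passed this filter, which kept 14758 genes. *IL1RN* and *CCL3* passed only through their 96 h libraries, and so had to be higher there. *CXCL2* and *CXCL3* had 0 counts in all 6 libraries, as had 28.2% of the symbols in the table. Over the 2 libraries of a group, a count of 0 allows a level of up to 0.130 CPM at 0 h, 0.136 CPM in control and 0.139 CPM in depleted cells (3 counts over the group). *IL6*, *IL18*, *CCL2* and *CCL4* had from 0 to 15 counts in a library and were below the filter.

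*IL1B* had 29 and 24 counts at 0 h, 342 and 307 in the 96 h control and 858 and 858 after CTCF depletion. The 3 groups did not overlap, and the CTCF-depleted libraries were the highest. *IL1RN*, the antagonist, had 0 and 0 counts at 0 h, 1541 and 1500 in the 96 h control and 1231 and 1129 after CTCF depletion. Its order at 96 h was the opposite of that of *IL1B*: both control libraries were above both CTCF-depleted libraries. *TNF* had 29 and 51 counts at 0 h, 80 and 95 in the 96 h control and 175 and 187 after CTCF depletion. *CCL3* had 3 and 0 counts at 0 h, 104 and 89 in the 96 h control and 183 and 173 after CTCF depletion. Like *IL1B*, both were lowest at 0 h and highest in CTCF-depleted cells, with no overlap between groups.

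**Figure D1:**
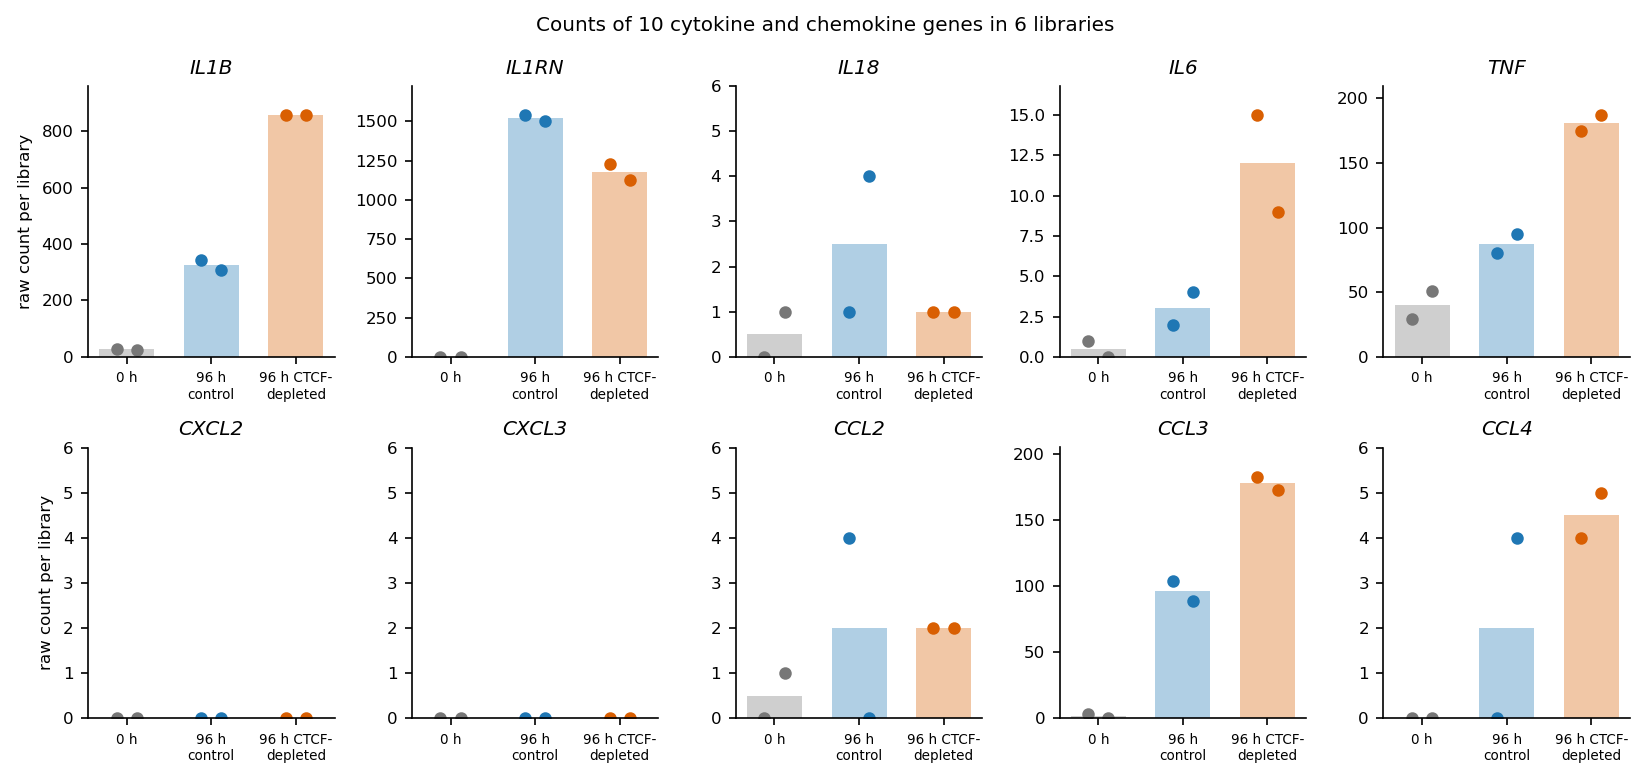
Raw counts of the 10 genes in each of the 6 libraries, 1 panel per gene, with the libraries grouped by condition on the x axis and the count on the y axis of each panel, each point a library and each bar the mean of the group. *IL1B* is at 858 counts in both CTCF-depleted libraries against 307 and 342 in control, *IL1RN* is lower there than in control, and *CXCL2* and *CXCL3* are at 0 throughout.

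The differentiation comparison asked how these genes change as leukemic B cells become iMacs. Of the 4 members tested, 4 were higher in 96 h control cells than at 0 h, where 25.4% of all genes tested were higher and 22.9% lower. Because *IL1RN* and *CCL3* passed the filter only through their 96 h libraries, their direction was fixed in advance. The count of members higher is therefore a description, and no p-value is given here for *IL1RN* and *CCL3*. In all 4, both control libraries were above both 0 h libraries, as in 43.9% of all genes tested (42.8% had both below). *IL1B* rose from 2.40 ± 0.842 to 29.3 ± 1.24 CPM (SD, n = 2 each), 12.7-fold, with a log2 fold change of 3.66 (SE 0.15, adjusted p = 1.90e-29, edgeR). *TNF* rose from 3.41 ± 0.590 to 7.93 ± 1.23 CPM, 2.28-fold, with a log2 fold change of 1.19 (SE 0.21, adjusted p = 1.57e-06, edgeR). *IL1RN* went from no count to 137 ± 2.06 CPM, at least 1055-fold higher against a floor of 3 counts over the 0 h group. *CCL3* went from 3 to 193 counts over the group, a ratio of 66.9 with a 95% counting interval from 22.6 to 327. The 3 counts of *CCL3* at 0 h are all in replicate 1, so that its log2 fold change ran from 4.72 to 9.63 when single libraries were left out.

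The ranking of the members by level also changed. Levels of different genes were compared as CPM per kilobase of the canonical transcript. At 0 h, *TNF* (2.03 ± 0.351 CPM per kb) and *IL1B* (1.59 ± 0.559 CPM per kb) were the leading members, and their libraries overlapped. In control cells at 96 h the order was *IL1RN* (80.7 ± 1.21 CPM per kb), *IL1B* (19.4 ± 0.823), *CCL3* (11.2 ± 0.849) and *TNF* (4.73 ± 0.732), with no overlap between neighbours in that order. The level of the antagonist thus stood above those of the other 9 members. *CCL4*, *IL6*, *CCL2* and *IL18* followed with levels from 0.206 to 0.281 CPM per kb, which overlapped.

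The depletion comparison asked how the loss of CTCF during differentiation alters these genes in iMacs. It uses the same 96 h control libraries as the comparison above. Of the 4 members tested, 3 were higher in CTCF-depleted cells (*IL1B*, *TNF* and *CCL3*), where 5.41% of all genes tested were higher and 7.03% lower. *IL1B* was at 79.2 ± 0.286 CPM in CTCF-depleted cells, 2.70 times its control level, with a log2 fold change of 1.43 (SE 0.08, adjusted p = 6.39e-22, edgeR). *TNF* was at 16.7 ± 0.723 CPM, 2.11 times its control level, with a log2 fold change of 1.08 (SE 0.16, adjusted p = 1.62e-07). *CCL3* was at 16.4 ± 0.712 CPM, 1.88 times its control level, with a log2 fold change of 0.91 (SE 0.17, adjusted p = 8.10e-06). All 3 also passed with DESeq2, with adjusted p = 3.65e-29 for *IL1B*, 5.23e-05 for *TNF* and 0.00105 for *CCL3*. When the change was tested against the fold threshold itself (glmTreat), *IL1B* kept its call, while *TNF* (adjusted p = 0.0111) and *CCL3* (adjusted p = 0.117) did not.

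*IL1RN* was at 109 ± 7.06 CPM in CTCF-depleted cells, 0.793 times its control level. Its log2 fold change of -0.33 (SE 0.07, adjusted p = 3.89e-05, edgeR) passed the p threshold of 0.01 and was below the fold threshold of 0.6 on the log2 scale. Of all genes tested, 37.8% had both CTCF-depleted libraries below both control libraries, as *IL1RN* had, and 30.1% had both above, as the other 3 members had. Over the 4 members tested, the median log2 fold change was 1.00, beside -0.03 over all genes tested. The members were chosen with earlier results of these data known. This median and the count of members called are therefore a description.

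**Figure D2:**
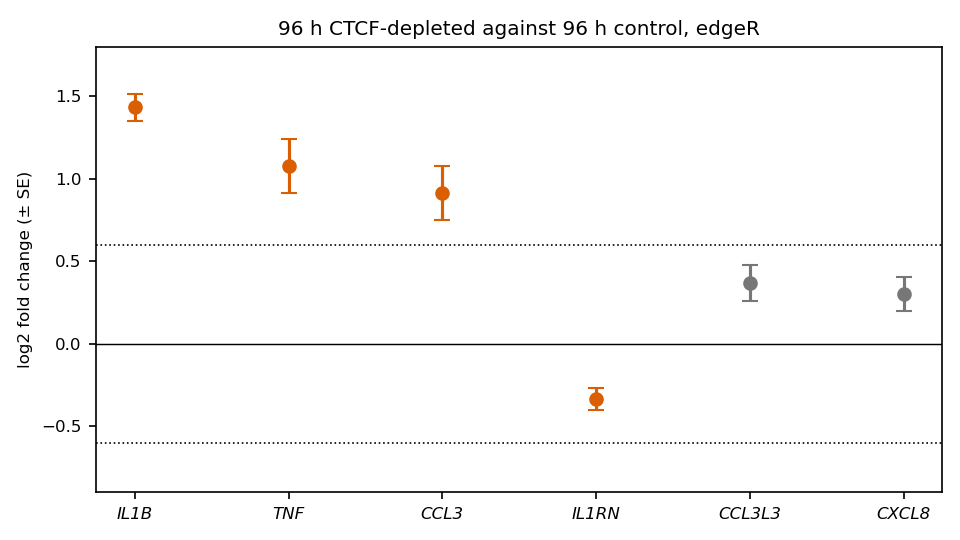
Log2 fold change in CTCF-depleted against control cells at 96 h (y axis, log2 scale) of the 4 tested members (orange) and of *CCL3L3* and *CXCL8* (grey). Points have bars of 1 standard error derived from the edgeR test, and dotted lines mark the fold threshold. *IL1B*, *TNF* and *CCL3* lie at 1.43, 1.08 and 0.91, above the upper line, *IL1RN* lies at -0.33, and *CCL3L3* and *CXCL8* lie at 0.37 and 0.30, between the lines.

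Within a library, the balance of agonist and antagonist transcripts moved with CTCF depletion. The ratio of *IL1B* to *IL1RN* counts was 0.222 and 0.205 in control cells and 0.697 and 0.760 with CTCF depletion, a difference of the group means of 1.77 on the log2 scale, or 3.41-fold. The groups did not overlap. The ratio does not depend on library size, and with 2 libraries a group it was given no test, since an exact permutation test cannot go below a two-sided p of 0.333. The ratio of *TNF* to *IL1B* counts moved less, by -0.35 on the log2 scale. Per kilobase, CTCF-depleted cells kept the order of the control cells: *IL1RN* (64.0 ± 4.14 CPM per kb), *IL1B* (52.6 ± 0.190), *CCL3* (21.1 ± 0.913) and *TNF* (9.96 ± 0.431), again without overlap between neighbours. The 10 members summed to 183 and 185 CPM in control cells and to 229 and 218 CPM with depletion.

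**Figure D3:**
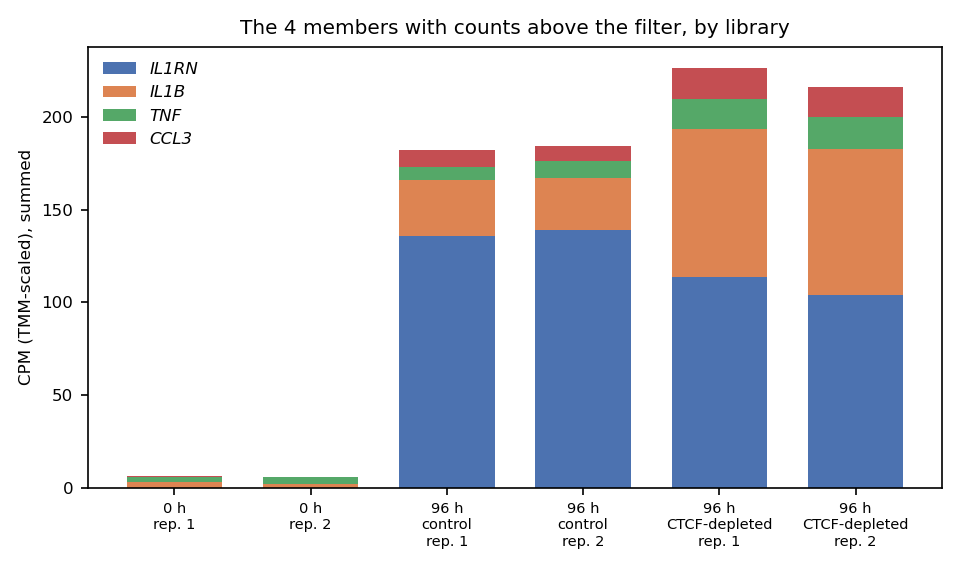
Stacked levels of the 4 tested members in each library (y axis, CPM, not per kilobase), bars starting at 0. The *IL1RN* segment is smaller and the *IL1B* segment larger in the CTCF-depleted than in the control libraries, and the 0 h bars are at 6.29 and 5.63 CPM.

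Set against 0 h, CTCF-depleted cells had all 4 tested members higher, where 27.2% of all genes tested were higher and 25.2% lower. Here too the direction of *IL1RN* and *CCL3* was fixed by the filter, so that the count is a description. All 4 members had both CTCF-depleted libraries above both 0 h libraries. Such a lack of overlap held for 44.6% of all genes tested in that direction and 43.1% in the other. This comparison shares its libraries with the other two. *IL1B* was 34.2-fold higher than at 0 h (log2 fold change 5.10, SE 0.13, adjusted p = 4.04e-40, edgeR), against 12.7-fold in control cells. *TNF* was 4.81-fold higher (log2 fold change 2.27, SE 0.19, adjusted p = 2.01e-16), against 2.28-fold. For *CCL3* the ratio was 126 (95% counting interval 42.8 to 615), with a log2 fold change from 5.67 to 10.57 when single libraries were left out, and *IL1RN* was at least 837-fold higher.

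Among the members below the filter, *IL6* had the clearest pattern. It had 1 and 0 counts at 0 h, 2 and 4 in the 96 h control and 15 and 9 after CTCF depletion, so that the CTCF-depleted libraries were above all others. The ratio of CTCF-depleted to control cells was 4.09, with a 95% counting interval from 1.63 to 12.2. In a fit without the filter, its log2 fold change was 2.02 (SE 0.78, adjusted p = 0.0386, edgeR), which missed the threshold of 0.01. Against 0 h the same fit gave 4.35 (SE 1.09, adjusted p = 1.58e-04). *IL6* shares 1730 bases with *STEAP1B* on the other strand, whose counts ran the other way (27 and 32 at 0 h, 6 and 8 in control, 2 and 3 after CTCF depletion), and the strand setting of the counting is not given in the sources used here.

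*CCL4* had 0 and 0 counts at 0 h, 0 and 4 in control and 4 and 5 with depletion. The ratio of CTCF-depleted to control cells was 2.30, with an interval from 0.642 to 10.2 that includes no difference. *IL18* had 0 and 1, 1 and 4, and 1 and 1 counts in the same order of groups. *CCL2*, the monocyte chemokine, had 0 and 1, 4 and 0, and 2 and 2 counts. For *IL18* and *CCL2* no difference between any groups was detectable at this depth. *IL18* shares 20844 bases with an annotated protein-coding gene on the other strand that is not listed in the count table. What this overlap does to its counts was not tested.

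*CCL3* and *CCL4* have near-identical copies in the same cluster. *CCL3L3* (chromosome 17, 36194869 to 36196758), 104700 bases from *CCL3*, had 1 and 2 counts at 0 h, 267 and 285 in control and 363 and 335 with depletion. Its log2 fold change with CTCF depletion was 0.37 (SE 0.11, adjusted p = 0.00465, edgeR), below the fold threshold. Of all 50-base windows of the *CCL3* transcript, 9.85% also occur in *CCL3L3*, so that reads can be split between the copies. The ratio of *CCL3* to *CCL3L3* counts was 0.390 and 0.312 in control and 0.504 and 0.516 with depletion. Summed, the copies had a log2 fold change of 0.53 (SE 0.09, adjusted p = 1.94e-06), so that the call of *CCL3* was lost on the fold threshold. *CCL3* also overlaps *CCL3-AS1* on the other strand. *CCL4L1* had 0 and 0, 10 and 5, and 8 and 8 counts, *CCL3L1* and *CCL4L2* had no count, and 23.6% of the windows of *CCL4* occur in *CCL4L2*. *CXCL1*, which shares 5.63% of the windows of *CXCL2*, was at 0 in every library too.

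The receptors for these ligands were measured in the same libraries. *IL6R*, the ligand-binding chain for IL-6, was at 1.58 CPM at 0 h, 525 CPM in control and 505 CPM with depletion (log2 fold change with depletion -0.05, adjusted p = 0.363). *IL6ST*, its signalling partner gp130, rose with CTCF depletion from 202 to 309 CPM (log2 fold change 0.61, SE 0.05, adjusted p = 6.44e-16, edgeR). The call of *IL6ST*, close to the fold threshold, was lost with glmTreat and at a log2 threshold of 1. *TNFRSF1A* and *TNFRSF1B* encode the TNF receptors: the first had a log2 fold change of 0.07 (adjusted p = 0.322), and the second fell from 167 to 108 CPM (-0.63, SE 0.06, adjusted p = 1.18e-12). That call was kept under 8 of 14 alternatives and missed the fold threshold without control replicate 1 (-0.59) and without CTCF-depleted replicate 2 (-0.56). *CCR1*, which binds the *CCL3* product, had a log2 fold change of 0.44 (adjusted p = 5.22e-05), below the fold threshold. *CCR2* (-0.74, adjusted p = 0.0724), *CXCR2* (0.59, adjusted p = 0.344), *IL1RAP* (-0.12, adjusted p = 0.229) and *IL18RAP* (-0.33, adjusted p = 0.646) did not pass, and *IL1R1*, *IL1R2* and *IL18R1* were below the filter.

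Signalling and control genes of the same pathways were counted against the shares over all genes tested with CTCF depletion, 5.41% higher and 7.03% lower, and with lists this short nothing is read from their counts. In the list of IL-1 and IL-18 processing, receptors and signalling, 1 of 13 genes tested passed: *IRAK2*, a kinase of the IL-1 receptor pathway, fell from 28.9 to 14.2 CPM (log2 fold change -1.02, SE 0.12, adjusted p = 7.95e-10, edgeR). In the TNF list, 1 of 9 was higher and 1 lower: beside *TNFRSF1B*, *TNFAIP3*, which encodes the NF-kB inhibitor A20, rose from 10.0 to 26.7 CPM (1.41, SE 0.13, adjusted p = 8.41e-14), toward its 0 h level of 36.3 CPM. In the IL-6 list, *IL6ST* was the 1 gene of 5 that passed. Among the regulators of cytokine mRNA decay, 1 of 8 passed: *ZFP36*, whose product tristetraprolin binds AU-rich elements such as those of *TNF* mRNA and promotes decay, fell from 211 to 101 CPM (-1.07, SE 0.06, adjusted p = 2.78e-22). The median log2 fold changes of these 4 lists were 0.09, 0.07, 0.14 and -0.15.

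Of the other chemokines, 6 of 22 could be tested and 1 passed with depletion. *CXCL16* fell from 5.02 to 2.12 CPM (log2 fold change -1.24, SE 0.29, adjusted p = 5.21e-04, edgeR). DESeq2 did not make this call, and the adjusted p was 0.0114 without control replicate 1, 0.0201 without control replicate 2 and 0.0167 without CTCF-depleted replicate 1. Of the other cytokines, 13 of 22 could be tested and 2 were lower. *OSM*, which encodes the IL-6 family cytokine oncostatin M, fell from 21.6 to 8.82 CPM (-1.29, SE 0.16, adjusted p = 6.43e-10), and *MIF*, macrophage migration inhibitory factor, fell from 132 to 81.6 CPM (-0.69, SE 0.06, adjusted p = 4.72e-14). The call of *MIF* was lost with glmTreat and at a log2 threshold of 1. *IL10*, an anti-inflammatory cytokine, had a log2 fold change of 1.41 (SE 0.47, adjusted p = 0.0140) and did not pass. During differentiation, where 25.4% of all genes tested were higher and 22.9% lower, 8 of 13 genes of the IL-1 list, 6 of 9 of the TNF list, 5 of 5 of the IL-6 list, 3 of 4 chemokine receptors, 6 of 6 other chemokines and 10 of 13 other cytokines were higher in control than 0 h cells, and 1 gene of the TNF list and 3 other cytokines were lower. The mRNA decay list had 4 of 8 higher and 2 lower. Several of these genes, such as *CCR1* with 0 and 1 counts at 0 h and *CXCL16* with 2 and 1, passed the filter only through their 96 h libraries and had to be higher there, so that these counts are a description.

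**Figure D4:**
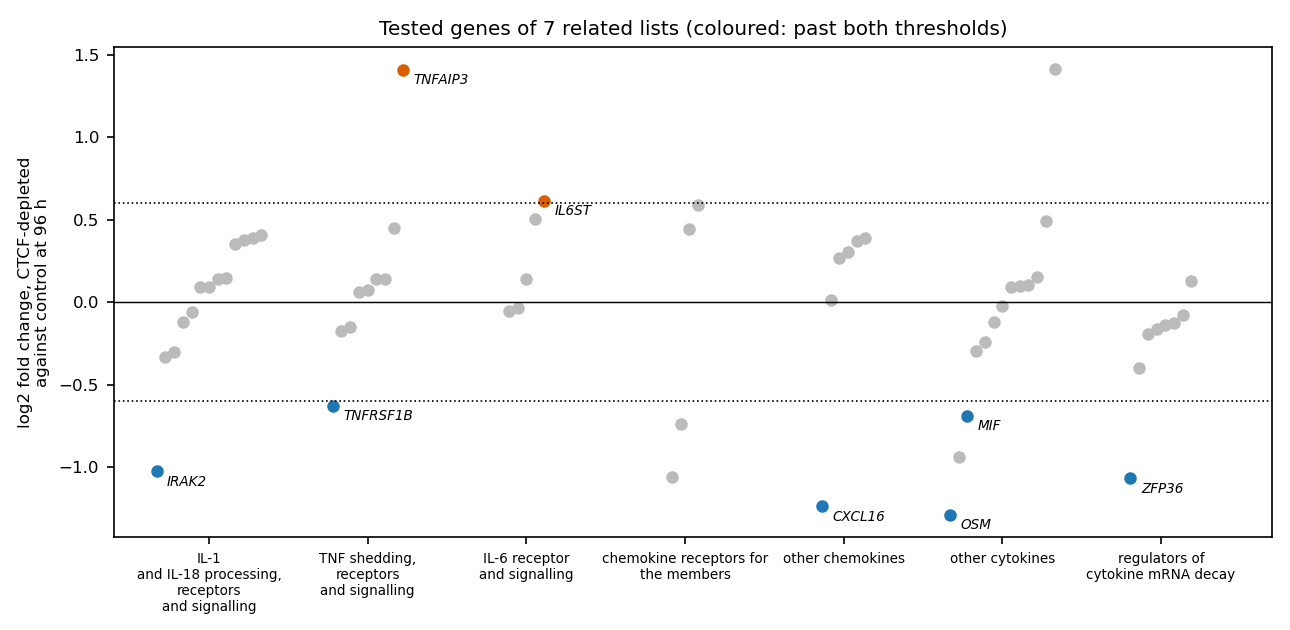
Log2 fold change of each tested gene of 7 related lists in CTCF-depleted against control cells (y axis, log2 scale), with the lists side by side on the x axis, 1 point per gene and genes past both thresholds coloured and named. *OSM* is lowest at -1.29, *TNFAIP3* is at 1.41 in the TNF list, and the grey point at the same height among the other cytokines is *IL10*.

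Genes next to the members were examined within 50 kb. The window holds 30 protein-coding genes, of which 26 are in the table and 13 could be tested, and 3 of these were higher with CTCF depletion, beside 5.41% of all genes tested. *PSD4*, next to *IL1RN*, rose from 89.9 to 139 CPM (log2 fold change 0.63, adjusted p = 8.26e-12, edgeR), while *IL1RN* itself had -0.33. *ATP6V1G2* (1.34, adjusted p = 2.33e-04) and *NFKBIL1* (0.66, adjusted p = 3.22e-04) are near *TNF* and rose with it. The call of *ATP6V1G2* was kept under 12 of 14 alternatives, and its log2 fold change was 1.07 without control replicate 1. *ATP6V1G2* and *NFKBIL1* overlap each other on opposite strands. Because the strand setting of the counting is not given, their counts may not be separate. With glmTreat the calls of *PSD4*, *ATP6V1G2* and *NFKBIL1* were lost, and at a log2 threshold of 1 those of *PSD4* and *NFKBIL1* were. *LTA*, the TNF family gene 1241 bases from *TNF*, had a log2 fold change of 0.49 (adjusted p = 0.555). *LST1*, on the other side of *TNF*, had 0.44 (adjusted p = 0.0019). No neighbour of *IL1B* could be tested.

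The genes whose pattern over the 6 libraries was most like that of a member were found by the distance between log2 CPM values centred on each gene's mean, among 14249 genes. Nearest to *IL1B* were *SEZ6L* (distance 0.43), *TNFRSF10C* (0.57) and *MEIS3* (0.65). Nearest to *IL1RN* were *CLEC5A* (0.22), *SIRPB2* (0.41) and *MYO1F* (0.42). *CLEC5A* encodes a lectin receptor of myeloid cells. Nearest to *TNF* were *EFCAB5* (0.28), *C1orf21* (0.28) and *C10orf118* (0.30), and nearest to *CCL3* were *CD300LF* (0.78), *NCF1C* (0.88) and *LOC100507507* (0.89). The 4 members had no nearest gene in common. Where counts at 0 h were near 0, these distances rest on the prior count of 2. With a prior count of 0.5, *IL1RN* at 0 h was at -4.48 instead of -2.48 log2 CPM. Near genes can therefore differ in fold change. In control against 0 h, the log2 fold change was 4.22 for *SEZ6L*, 5.71 for *TNFRSF10C* and 7.60 for *MEIS3*, beside 3.66 for *IL1B*. It was 9.77 for *MYO1F*, beside 13.6 for *IL1RN*.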

How the data were processed

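RNA-seq counts of 6 libraries were used, 2 biological replicates in each of 3 groups. The values are raw counts per gene, as deposited by the authors, who ran nf-core/rnaseq with STAR 2.6.1d, hg38 and featureCounts 2.0.6. The annotation release and the strand setting are not given in the sources used here. Total RNA was depleted of ribosomal RNA. The members and gene lists were chosen with earlier results of these data known.

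The model was fitted in edgeR 4.0.16 (R 4.3.3): filterByExpr (minimum count 10), TMM, and 1 quasi-likelihood model of all 6 libraries with condition as the only term. Benjamini-Hochberg adjustment covered all 14758 genes tested. A call needed an adjusted p below 0.01 and a log2 fold change beyond 0.6 in either direction. SE denotes standard error, derived for edgeR as the absolute log2 fold change divided by the square root of the F statistic. With DESeq2 the standard errors of the depletion change were larger: 0.12 for *IL1B*, 0.09 for *IL1RN*, 0.24 for *TNF* and 0.24 for *CCL3*. Log2 CPM values were computed with prior count 2. Simulated data served to test the model. Replicates within each group differed by more than counting noise (chi-square per degree of freedom 2.80, 1.95 and 1.75), and the common biological coefficient of variation was 3.96%. Reads carry no molecular identifiers. The 95% intervals and floors were computed from counts summed over a group, so that they cover counting error only and not the spread between replicates. Genes named are the members, their near-identical copies and receptors, called genes of the lists and of the 50 kb neighbourhoods, and the 3 genes nearest to each tested member. Some genes that this rule covers are left out and not reported here. *LTA*, *LST1*, *IL10*, *CXCL8* and *PPBP*, with the cluster they lie in, were chosen after their values were seen. *CXCL8* is listed under its older symbol *IL8*. Lengths and positions came from GENCODE 44. Alternatives were DESeq2 1.42.0, RLE, other filters and thresholds, glmTreat, 4 libraries, a replicate block and leaving out libraries. Summing *CCL3* and *CCL3L3* was chosen after seeing the data.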

Additional observations from a re-analysis of the deposited data

How the results depend on the processing

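In the differentiation comparison and in CTCF-depleted cells against 0 h, requiring at least 10 counts in every library left 2 and 2 members higher instead of 4 and 4, because *IL1RN* and *CCL3*, near 0 counts at 0 h, were no longer tested. In CTCF-depleted against control cells, glmTreat left 1 member higher (*IL1B*) instead of 3, and calling by adjusted p below 0.05 with no fold threshold gave 1 member lower (*IL1RN*) instead of 0. Summing *CCL3* with *CCL3L3*, a log2 threshold of 1, or at least 10 counts in every library left 2 members higher there. No log2 fold change of a member reversed. Leaving out a single library left 1 library in a group, which loosened the filter. *IL6*, below the filter in the main fit, could then enter through a CTCF-depleted library where its counts were high. Nothing is read from its calls in those fits. Across the fits without a single library, the depletion log2 fold change was 1.42 to 1.51 for *IL1B*, 0.96 to 1.27 for *TNF*, 0.87 to 1.03 for *CCL3* and -0.36 to -0.24 for *IL1RN*. Over all genes, 798 were higher and 1038 lower with depletion, against 298 and 344 with glmTreat, 2375 and 3330 with adjusted p below 0.05 and no fold threshold, and 409 and 436 at a log2 threshold of 1. For the other comparisons the thresholds moved counts as follows: 3748 higher and 3376 lower in control against 0 h became 5612 and 5500 with adjusted p below 0.05 and no fold threshold, and 2075 lower at a log2 threshold of 1. For CTCF-depleted cells against 0 h, 3726 lower became 5658 when both thresholds were relaxed in this way.

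Differences between replicates 1 and 2 showed no likeness between groups, with correlations across genes of -0.0194, 0.0109 and -0.0294. The labels do not say whether a replicate number marks a shared culture or day. Cultures handled together with little shared effect could give the same values, so whether the libraries were paired is not known. With the replicate block, 4, 3 and 4 members were higher, and no member's call changed. With 2 libraries a group and 6 members near 0 counts, depth limits what can be said of *IL18*, *CCL2*, *CCL4* and *IL6*.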

Other observations

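*CXCL2* and *CXCL3* lie at the end of a cluster of CXC chemokine genes on chromosome 4, and its members differed widely in level. *CXCL8* (chromosome 4, 73740519 to 73743716), a neutrophil attractant that also acts through CXCR2, had 0 and 2 counts at 0 h, 318 and 315 in control and 391 and 374 in CTCF-depleted cells. Its change with CTCF depletion was 0.30 on the log2 scale (SE 0.10, adjusted p = 0.0142, edgeR) and did not pass. *PPBP*, a platelet chemokine gene 48399 bases from *CXCL3*, had 0 and 0, 171 and 211, and 201 and 194 counts in the same order. Between and beside them, *CXCL1*, *CXCL2*, *CXCL3* and *PF4V1* were at 0 in all 6 libraries, and *CXCL5*, *CXCL6* and *PF4* had at most 2 counts in a library.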
